A study of Mus musculus with 2 samples.

Results

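Ribosome biogenesis genes encode the nucleolar machinery that transcribes ribosomal DNA, cuts and modifies the precursor RNA, and assembles it with ribosomal proteins into the small and the large ribosomal subunit. A list of 60 such genes was taken by gene symbol from the table of 16803 genes measured in NE4C cells, and every symbol was found there once. The list held 8 genes of RNA polymerase I transcription, 8 of the small nucleolar ribonucleoproteins (snoRNPs), 6 of abundant nucleolar proteins with several roles, 18 of small subunit assembly and 20 of large subunit assembly. All 60 passed the filter of 10 reads, with from 406 to 59276 in control and from 382 to 33849 under HTL.

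RNA polymerase I reads ribosomal DNA inside the nucleolus. SnoRNPs then methylate or pseudouridylate the new RNA, the small subunit processome folds and cuts its first part, and a separate set of factors matures the large subunit. Proliferating stem and progenitor cells are known for large nucleoli and high levels of these messenger RNAs, and the factor Myc, which binds the E-box motif, is a known activator of many of the genes. The values below are levels of the messenger RNAs, not of ribosomal RNA or protein.

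Control RNA came from NE4C cells, a neural stem cell line established from the brain vesicles of mouse embryos that lack p53, grown in Eagle MEM on plates coated with poly-L-lysine. The compared culture was the same line treated with homocysteine thiolactone (HTL), the cyclic thioester of homocysteine. Neither dose nor duration is given for these libraries. Each condition had 1 library, so no difference has a replicate check, and each test or interval covers counting error between these 2 libraries, not a difference between the conditions.

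The control library held 10350646 reads and the HTL library 9102057. Of the 10 neural stem or progenitor markers all were in the table, with summed levels of 229 and 157 FPKM before and after HTL. Vim (78.5 and 38.8 FPKM), Sox2 (34.7 and 12.6) and Sox3 (20.8 and 8.88) were lower in value, Prom1 was higher (11.9 and 18.3), Msi1 (38.7 and 39.5) and Nes (25.1 and 24.1) lay close together, and Fabp7 had 2 reads in each library. Of the pluripotency factors, Pou5f1 stood at 1870 and 2114 FPKM and Nanog at 23.8 and 14.8 FPKM. Among markers of other cell types, 4 neuronal genes summed to 20.1 and 27.7 FPKM. Most of it was Tubb3, at 16.3 and 24.8 FPKM, while Dcx, at 0.93 and 0.34, and Map2, at 1.88 and 1.28, went the other way. The 3 fibroblast genes summed to 4.83 and 13.1 FPKM, nearly all Thy1 (4.42 and 12.1 FPKM), with Col1a1 and Col1a2 at 12 and 25 reads each. Astrocyte markers summed to 18.2 and 18.1 FPKM, nearly all Slc1a3 (799 and 703 reads), with Gfap at 2 and 0 reads, and oligodendrocyte markers to 3.65 and 4.29 FPKM, nearly all Mbp (182 and 186 reads). Neither of the 2 blood markers looked for was in the table. The part of these differences in the results below was not tested, and in bulk RNA fewer cells of a type and less RNA per cell cannot be told apart.

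Relative to the library totals, 31 of the 60 ribosome biogenesis genes were modestly lower in the HTL library, 6 were higher, and on this scale none moved as far as 2-fold. Of the 60 genes, 44 had a log2 ratio (HTL treatment over control, scaled to the library totals) below 0 and 16 above 0, and of all 13442 genes tested 7893 lay below 0 and 5549 above. Against the median gene, 33 of the 60 lay below and 27 above. The extremes were Ncl, the gene of the abundant RNA-binding protein nucleolin, at -0.88, and Taf1d, the gene of a subunit of the polymerase I promoter factor, at 0.96. The median was -0.20, with quartiles of -0.49 and 0.03. Over all genes tested the median was -0.14, with quartiles of -0.60 and 0.28, so the median biogenesis gene lay 0.06 below the median gene.

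Calls required a log2 ratio of 1 or more in size together with an adjusted p no greater than 0.001 (exact binomial test with Benjamini-Hochberg adjustment). By this rule 0 of the 60 genes were called, where 2.81% of all genes tested were called higher and 7.98% were called lower. At the same adjusted p with no cutoff on the ratio, which is termed past counting error below, 31 of the 60 were lower and 6 were higher. Over all genes tested the shares past counting error were 24.1% lower and 14.5% higher, against 51.7% lower among the biogenesis genes. This share depends on the number of reads. Among the 4312 genes tested that had 850 or more reads over both libraries, the number of the biogenesis gene with the fewest, 36.1% were lower and 28.4% higher past counting error, and 4.85% and 2.25% were called. The median log2 ratio of the 4312 was -0.053, above the -0.14 of all genes tested and the -0.20 of the biogenesis genes.

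The balance of the calls depended on the scaling. With TMM scaling 23 genes were lower and 11 higher past counting error, where 18.5% and 20.1% of all genes tested were, and with the median of ratios 22 and 12, where 18.2% and 20.4% were. The higher counts were thus near the share over all genes. Those scalings raised every log2 ratio by about as much as the median gene lay below 0. Under all 4 scalings run, 33 genes stayed below 0, 16 stayed above 0 and 11 changed sign (Brix1, Fbl, Gnl2, Nhp2, Nop16, Nop2, Nop58, Pes1, Rrp1, Ubtf and Wdr75). If the cultures were assumed to vary with a biological coefficient of variation of 0.1, 2 genes passed the adjusted p in edgeR's exact test (Ncl and Taf1d), and with 0.2 none did.

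**Figure D1:**
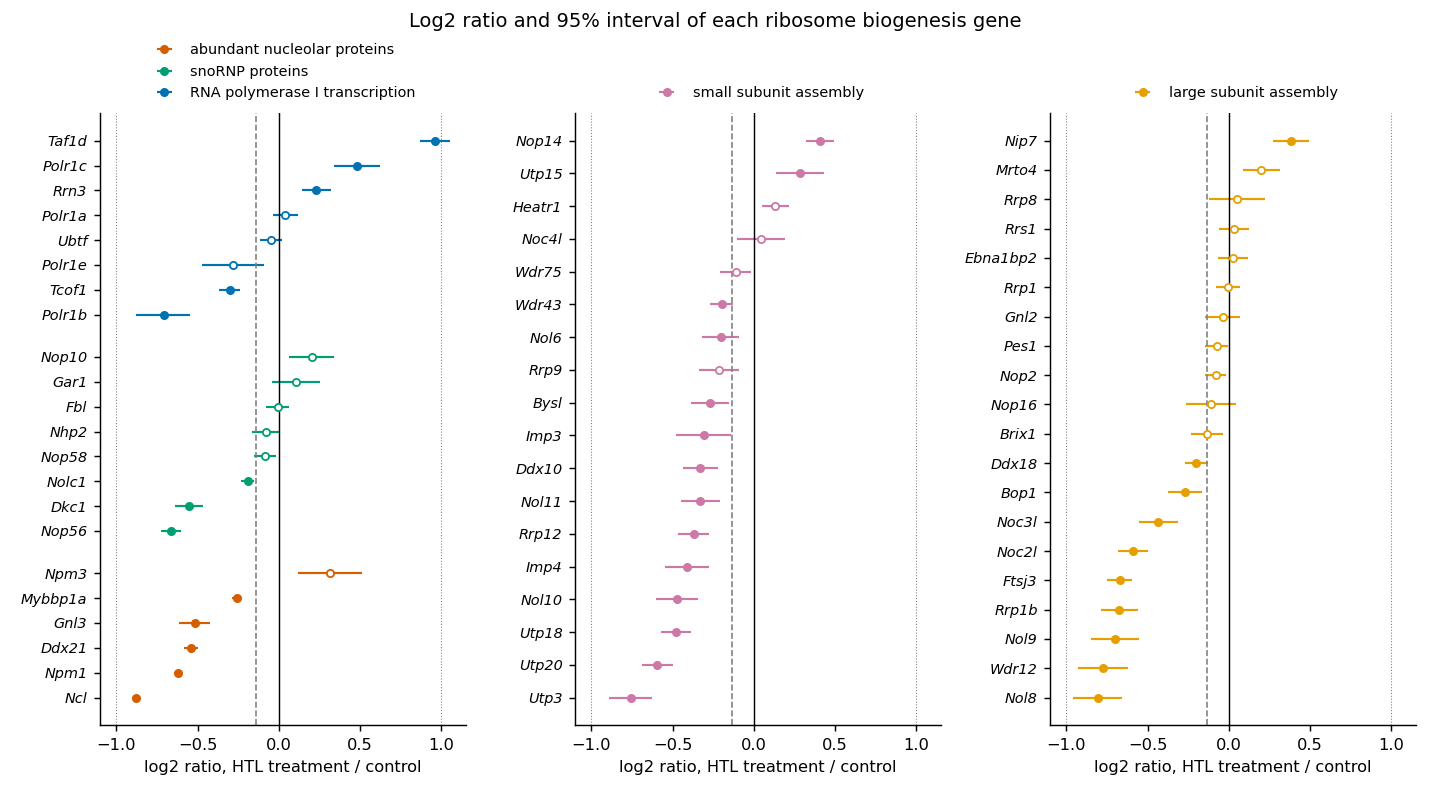
Log2 ratio of each of the 60 genes (x axis, HTL treatment over control, scaled to library totals), grouped by role and ordered by ratio; points are single-library comparisons, bars are exact 95% intervals for counting error, and filled points passed an adjusted p of at most 0.001. The dashed line marks the median of all genes tested (-0.14) and dotted lines a log2 ratio of -1 and 1; Taf1d at 0.96 and Ncl at -0.88 lie farthest out, and no point crosses a dotted line.

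The 6 abundant nucleolar genes held 51.8% of the control reads on the list and 44.1% of those after HTL. Npm1 encodes nucleophosmin, a histone and ribosome assembly chaperone of the granular part of the nucleolus. It lies on NCBIM37 chromosome 11, 33052287 to 33063206, minus strand (gene ID 18148). Npm1 had 59276 control and 33849 HTL reads, or 4221 and 2742 FPKM. It was the fourth most abundant gene of the control library by FPKM, and its log2 ratio was -0.62 (95% interval -0.64 to -0.60). Ncl (gene ID 17975; chromosome 1, 88241294 to 88256030, minus strand) had 38351 and 18339 reads, or 443 and 240 FPKM. Its log2 ratio of -0.88 (-0.90 to -0.85) was the lowest on the list.

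Of the other genes in that group, Ddx21, an RNA helicase that couples polymerase I transcription to processing, had 11436 and 6923 reads, at a log2 ratio of -0.54 (-0.58 to -0.50). Gnl3 encodes nucleostemin, a nucleolar GTPase of stem cells, and had 2420 and 1486 reads, at a log2 ratio of -0.52 (-0.61 to -0.42). Mybbp1a, a nucleolar protein that binds Myb, had 17278 and 12716 reads, a smaller difference of -0.26 (-0.29 to -0.22) on the log2 scale. All 5 were lower past counting error under each scaling of the libraries, though Mybbp1a (-0.055) did not pass relative to genes of like length. Npm3, a small relative of nucleophosmin, went the other way in value, with 406 and 444 reads, or 46.4 and 57.7 FPKM, at a log2 ratio of 0.31 (0.12 to 0.51) that did not pass. It passed when summed with its near copy Npm3-ps1, and alone under TMM (0.44), the median of ratios (0.45) and the upper quartile (0.41).

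Together the 60 genes made up 2.41% of control reads (exact 95% interval 2.40 to 2.42) and 1.84% of those after HTL (1.83 to 1.85), a log2 ratio of -0.39. Npm1 and Ncl alone were 39.2% of these reads before and 31.2% after HTL. Without both, the share of the other 58 genes went from 1.47% to 1.26%, a log2 ratio of -0.21 (-0.22 to -0.20).

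The pair also changed relative to each other, a comparison that no scaling of the libraries touches. The ratio of Ncl to Npm1 in FPKM was 0.105 in control and 0.0877 under HTL, a log2 change of -0.26 (exact conditional 95% interval -0.29 to -0.22). Centring by transcript length does touch it. Relative to genes of like length Ncl (-0.50) lay less far below 0 than Npm1 (-0.60), so the order of the pair turned round. Npm1 stood 90.9 times as high as Npm3 in the control library and 47.5 times as high in the HTL library, a log2 change of -0.94 (-1.14 to -0.74).

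**Figure D2:**
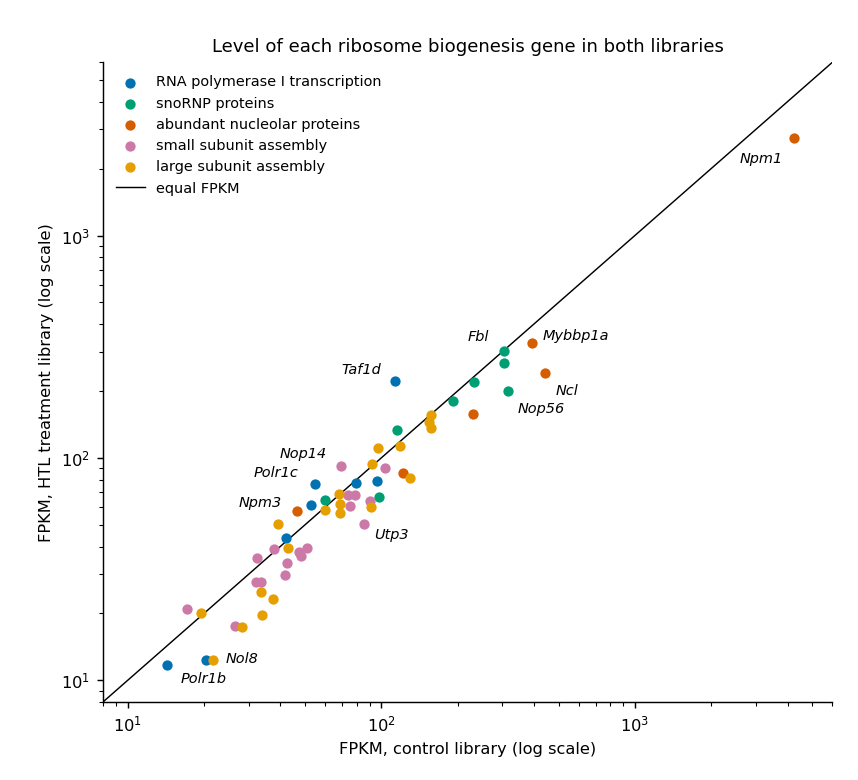
FPKM of each of the 60 genes in the control library (x axis) and the HTL library (y axis), both on log scales, coloured by role; the line marks equal FPKM and each point is 1 gene with no replicate. Npm1 stands alone at 4221 and 2742 FPKM, Ncl and Nop56 lie below the line, Fbl lies on it at 304 and 302 FPKM, and Taf1d lies above it at 113 and 221 FPKM.

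The genes of RNA polymerase I transcription moved in both directions, with 3 higher and 2 lower past counting error and a median log2 ratio of -0.0025 that was above 0 under each other scaling. Taf1d encodes a subunit of the selectivity factor that places polymerase I at the ribosomal DNA promoter. Taf1d (gene ID 75316; chromosome 9, 15110658 to 15121441, plus strand) had 1501 control and 2567 HTL reads, or 113 and 221 FPKM. Its log2 ratio of 0.96 (0.87 to 1.05) fell just short of the cutoff, and it was called under TMM (1.09), the median of ratios (1.10) and the upper quartile (1.05). Its exons overlap 5830418K08Rik on the opposite strand, and the use of strand in counting is not stated, so its reads are uncertain.

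Polr1c encodes a subunit shared by polymerases I and III. It had 730 and 897 reads, at a log2 ratio of 0.48 (0.34 to 0.63). Rrn3, the factor that makes polymerase I competent to initiate, had 1984 and 2046 reads, at a log2 ratio of 0.23 (0.14 to 0.32). Polr1b, the second largest subunit of the core enzyme, had 852 and 458 reads, or 20.3 and 12.4 FPKM, at a log2 ratio of -0.71 (-0.88 to -0.54), the lowest of the group; it lies on chromosome 2, 128926731 to 128952330, plus strand. Treacle, encoded by Tcof1, a scaffold that recruits polymerase I, was at 4678 and 3339 reads with a log2 ratio of -0.30 (-0.37 to -0.24), and relative to genes of like length (-0.099) it did not pass. The core enzyme and the factors that place and start it thus did not share a direction.

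The remaining genes of this group did not pass, except Polr1a with TMM (0.17) and the median of ratios (0.18), and Polr1a and Ubtf, as higher, relative to genes of like length. Polr1a, the largest subunit of the polymerase, had 2723 and 2464 reads (0.041 on the log2 scale), Ubtf, which keeps ribosomal DNA in an active state, had 3863 and 3290 reads (-0.046), and Polr1e had 528 and 382 reads (-0.28). Both largest subunits form the catalytic centre, and Polr1b stood at 0.480 times the FPKM of Polr1a in the control library and at 0.285 times in the HTL library. That log2 change of the ratio was -0.75 (-0.94 to -0.57).

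Within the snoRNPs, 3 of 8 genes (37.5%) were lower past counting error and 5 did not pass. This count is near the 36.1% lower among all genes tested with 850 or more reads. The median log2 ratio of the 8 was -0.081, and it was above 0 under each other scaling. Box C/D particles methylate ribose and hold fibrillarin (Fbl), the methyltransferase, with the scaffold proteins Nop56 and Nop58. Fbl had 3591 and 3141 reads, at a log2 ratio of -0.0077 (-0.077 to 0.062). Nop58 had 3908 and 3239 reads and one of -0.085 (-0.15 to -0.018), and neither passed, although Fbl passed as higher with the median of ratios (0.13) and as lower relative to genes of like length (-0.15). Nop56 (gene ID 67134; chromosome 2, 130100166 to 130105049, plus strand) had 6227 and 3454 reads, or 317 and 199 FPKM, and its log2 ratio of -0.66 (-0.73 to -0.60) was the lowest of the snoRNP genes. In FPKM, Nop56 stood at 1.04 times Fbl in the control library and 0.661 times in the HTL library, a log2 change of the ratio of -0.66 (-0.75 to -0.56). Exons of Nop56 overlap those of Idh3b on the opposite strand.

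Box H/ACA particles turn uridine into pseudouridine. Their enzyme dyskerin, encoded by Dkc1, had 2857 and 1711 reads, at a log2 ratio of -0.55 (-0.64 to -0.47), and it was lower past counting error. Its partners did not pass (Nhp2 did, as lower, relative to genes of like length), with log2 ratios of -0.076 for Nhp2 (2373 and 1979 reads), 0.11 for Gar1 (781 and 739 reads) and 0.20 for Nop10 (855 and 866 reads). Nop10, on chromosome 2 from 112102083 to 112103426 (plus strand), was the highest of the snoRNP genes, at 116 and 133 FPKM and an interval of 0.066 to 0.34, and it passed under TMM (0.33), the median of ratios (0.34) and the upper quartile (0.30). The ratio of Dkc1 to Nop10 in FPKM was 0.847 in control and 0.501 under HTL, and its log2 change was -0.76 (-0.92 to -0.59). Nolc1, a chaperone that carries both kinds of snoRNP, had 11636 and 8955 reads, at a log2 ratio of -0.19 (-0.23 to -0.15), past counting error, though under TMM and the median of ratios it did not pass.

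Ratios between partners were compared over 25 pairs, and the exact conditional interval of the change left out 0 in 20 of them. These were 2 of 3 pairs of the box C/D genes, 5 of 6 of the box H/ACA genes, 3 of 3 of the Pes1, Bop1 and Wdr12 complex and 7 of 10 of the subcomplex of the small subunit processome that holds Heatr1, besides the 3 pairs given above. With this many reads small changes leave out 0, the same share was not computed over other pairs of genes, and the count says nothing particular to these complexes. The intervals are not adjusted for the number of pairs, and the pairs were chosen after the values had been seen.

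Of all genes tested with 850 or more reads, 36.1% were lower and 28.4% higher past counting error. Among the 18 genes of small subunit assembly, 12 were lower and 2 higher (66.7% and 11.1%), with a median of -0.29 that was below 0 under each scaling run. Most of the proteins encoded belong to the small subunit processome, a large particle built on the precursor RNA around the snoRNA that guides its first cuts. Utp3, a processome component also called Sas10 (chromosome 5, 88983508 to 88985108, plus strand), had 1415 control and 735 HTL reads, or 85.4 and 50.3 FPKM. Its log2 ratio of -0.76 (-0.89 to -0.63) was the lowest of the group. Utp20, a very large repeat protein of the processome, had 2465 and 1436 reads, at a log2 ratio of -0.59 (-0.69 to -0.50). Utp18 had 2442 and 1538 reads (-0.48), and Nol10 had 1300 and 824 reads (-0.47). The most abundant gene of the group by FPKM, Wdr43, had 3711 and 2844 reads, or 103 and 89.8 FPKM, and a log2 ratio of -0.20 (-0.27 to -0.13).

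The other lower genes of the small subunit spanned -0.41 to -0.20 on the log2 scale. Imp4, which helps pair the guide snoRNA with the precursor, had 1122 and 741 reads (-0.41), and its partner Imp3 had 696 and 494 reads (-0.31). Rrp12, an export factor, had 2309 and 1570 reads (-0.37), the helicase Ddx10 had 1666 and 1166 (-0.33), and Nol11 had 1401 and 980 (-0.33). Bysl had 1352 and 986 reads (-0.27), and Nol6 had 1514 and 1155 (-0.20). Imp3, Bysl, Nol6 and the above Wdr43 did not pass under any of the other scalings, Nol11 did not with TMM or the median of ratios, and Ddx10 did not with the median of ratios. Bysl shares exon positions with Ccnd3 on the opposite strand, and Nol11 with Gm11715.

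Higher past counting error were Nop14 (chromosome 5, 34981181 to 35002797, minus strand), with 1957 and 2284 reads, or 69.7 and 92.3 FPKM, at a log2 ratio of 0.41 (0.32 to 0.50), and Utp15, with 732 and 783 reads and one of 0.28 (0.14 to 0.43). Nop14 binds Noc4l in the processome, and Noc4l had 799 and 724 reads, at a log2 ratio of 0.043 (-0.10 to 0.19) that did not pass. Heatr1 had 2308 and 2225 reads (0.13), Rrp9 had 1249 and 948 (-0.21) and Wdr75 had 2001 and 1630 (-0.11), and these did not pass either, although Heatr1 did under TMM (0.26), the median of ratios (0.27) and the upper quartile (0.23). Heatr1, Utp15, Wdr43, Wdr75 and Nol11 belong to the subcomplex that is linked to polymerase I transcription, and their log2 ratios ran from -0.33 to 0.28. The ratio of Nol11 to Utp15 in FPKM was 2.47 in control and 1.61 under HTL, a log2 change of -0.61 (-0.80 to -0.42).

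Of the promoters in the RefSeq table (GRCm38.p6, 250 bases before to 50 after a start site), those of 52 of the 60 genes were found. The E-box CACGTG reads the same on both strands, and a gene was counted if any of its promoters held it. It was in 9 of the 52 (17.3%), in 11.7% of the 10615 genes tested that had a promoter and in 8.09% of all 27025 genes with one. Counted by single promoter instead, it was in 7.15% of all 32851 promoters of this length. Genes with it were Rrn3, Mybbp1a, Nol11, Utp18, Utp20, Wdr43, Imp4, Pes1 and Nop2. Their median log2 ratio was -0.26, against -0.19 for the 43 without it, a small difference beside the spread of the genes. CCGGAAG, the core letters of the ETS family motif, searched on both strands, was in 17 of the 52 (32.7%) and in 19.4% of the genes tested. In the other biogenesis genes the E-box was in 21.7% of promoters and CCGGAAG in 45.7%, and in the ribosomal protein genes in 10.2% and 42.4%. The longer palindromic CGCG element, also searched on both strands, was in 1 of the 52 (1.92%) and in 1.14% of the genes tested. None of the motifs contains another.

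Below are the E-box promoters of the genes with the largest absolute log2 ratios, shown because these 4 small subunit genes carry the motif at different distances from the start site. Wdr43, also of the small subunit and with the motif, had a smaller ratio. Capitals mark the E-box. Its first base lies 38 bases after the start site counted from the first transcribed base as 1 in Utp20, and 20, 121 and 43 bases before it in Utp18, Imp4 and Nol11.
Utp20 (GRCm38.p6 chr10:88826765-88827064, minus strand): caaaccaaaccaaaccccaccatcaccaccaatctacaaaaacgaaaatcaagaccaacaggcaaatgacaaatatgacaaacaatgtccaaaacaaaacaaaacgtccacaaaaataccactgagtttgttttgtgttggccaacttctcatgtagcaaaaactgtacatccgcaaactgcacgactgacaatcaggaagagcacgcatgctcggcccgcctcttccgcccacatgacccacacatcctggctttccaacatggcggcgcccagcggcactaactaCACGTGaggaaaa
Utp18 (GRCm38.p6 chr11:93885717-93886016, minus strand): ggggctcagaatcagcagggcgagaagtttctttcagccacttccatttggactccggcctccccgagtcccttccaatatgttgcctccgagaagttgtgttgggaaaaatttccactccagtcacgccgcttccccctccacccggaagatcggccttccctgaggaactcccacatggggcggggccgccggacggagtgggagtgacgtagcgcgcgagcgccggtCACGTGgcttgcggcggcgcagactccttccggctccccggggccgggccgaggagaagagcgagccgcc
Imp4 (GRCm38.p6 chr1:34439579-34439878, plus strand): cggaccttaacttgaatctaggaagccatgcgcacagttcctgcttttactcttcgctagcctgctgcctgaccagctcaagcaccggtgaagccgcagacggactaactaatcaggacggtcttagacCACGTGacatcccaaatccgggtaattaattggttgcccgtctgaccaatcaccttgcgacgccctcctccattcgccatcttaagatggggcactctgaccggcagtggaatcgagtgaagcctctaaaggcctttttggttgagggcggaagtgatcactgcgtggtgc
Nol11 (GRCm38.p6 chr11:107189332-107189631, minus strand): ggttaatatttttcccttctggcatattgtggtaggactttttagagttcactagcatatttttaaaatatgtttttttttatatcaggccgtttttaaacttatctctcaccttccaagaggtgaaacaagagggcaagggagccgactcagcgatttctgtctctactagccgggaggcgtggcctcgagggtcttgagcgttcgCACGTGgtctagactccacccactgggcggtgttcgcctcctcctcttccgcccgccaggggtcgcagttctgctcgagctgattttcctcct
A match describes these letters only. The 4 genes had log2 ratios of -0.59 for Utp20, -0.48 for Utp18, -0.41 for Imp4 and -0.33 for Nol11, all lower past counting error, though Nol11 did not pass with TMM or the median of ratios.

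The 20 genes of large subunit assembly held 9 genes lower and 1 higher past counting error (45.0% and 5.0%). Among all genes tested with 850 or more reads 36.1% were lower and 28.4% higher. The median of the 20 was -0.12, which TMM (0.0080) and the median of ratios (0.014) turned positive. Nol8, a nucleolar RNA-binding protein (chromosome 13, 49748719 to 49774384, plus strand), had 1060 control and 532 HTL reads, or 21.8 and 12.4 FPKM. Its log2 ratio of -0.81 (-0.96 to -0.66) was the lowest of the group. Wdr12, the smallest partner of the complex with Pes1 and Bop1, had 1039 and 534 reads, at a log2 ratio of -0.77 (-0.93 to -0.62). Nol9, the polynucleotide kinase that prepares the spacer RNA for trimming, had 1104 and 597 reads and one of -0.70 (-0.85 to -0.56).

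Ftsj3, an RNA methyltransferase, had 3854 and 2125 reads (-0.67), and Rrp1b, a partner of protein phosphatase in the nucleolus, had 1809 and 997 (-0.67). Noc2l had 2631 and 1537 reads (-0.59) and Noc3l had 1397 and 909 (-0.43); both encode partners in an early large subunit complex. Bop1 had 1761 and 1282 reads (-0.27) and the helicase Ddx18 had 3671 and 2811 (-0.20), and the 9 genes named so far were lower past counting error. Bop1 and Ddx18 did not pass under any of the other scalings, with adjusted p (exact binomial test) of 0.0150 and 0.0934 with TMM. Pes1, the third partner of Wdr12 and Bop1, had 3602 and 3008 reads, at a log2 ratio of -0.075 (-0.14 to -0.0043) that did not pass. In FPKM, Wdr12 stood at 0.285 times Pes1 in the control library and 0.175 times in the HTL library, a log2 change of -0.70 (-0.87 to -0.53).

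Nip7, a large subunit assembly factor (chromosome 8, 109580777 to 109584826, plus strand), was higher past counting error, with 1238 and 1418 reads, or 39.1 and 50.8 FPKM, at a log2 ratio of 0.38 (0.27 to 0.49). With Pes1, 10 genes did not pass, and their log2 ratios ran from -0.13 for Brix1 (1890 and 1515 reads) to 0.20 for Mrto4 (1232 and 1244 reads), the latter being a relative of a ribosomal stalk protein. Mrto4 passed under TMM (0.33), the median of ratios (0.34) and the upper quartile (0.29). The most abundant of the group by FPKM was Rrp1, at 158 and 157 FPKM, with 3276 and 2869 reads, at a log2 ratio of -0.0059 (-0.079 to 0.067). Nop2, a cytosine methyltransferase, had 4211 and 3499 reads (-0.082), Nop16 had 765 and 623 (-0.11) and Gnl2 had 1463 and 1252 (-0.039). Ebna1bp2 had 2095 and 1875 reads (0.025), Rrs1 had 1953 and 1755 (0.031) and Rrp8 had 579 and 528 (0.052). These values lie close to the median gene.

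Several of the genes also hold snoRNA genes, so that one locus supplies both a nucleolar protein and guide RNAs. In GENCODE M1 (build NCBIM37), annotated snoRNA genes lay inside 7 of the 59 genes with a single annotated position, on the same strand. Taf1d held 8, Nop56 and Nop58 held 4 each, Ncl, Gnl3 and Wdr43 held 3 each and Dkc1 held 1. Of these hosts 5 were lower and 1, Taf1d, was higher past counting error, with a median log2 ratio of -0.52. For the 52 genes without a snoRNA gene inside, 25 were lower and 5 higher, with a median of -0.20. Among all genes tested with 850 or more reads 36.1% were lower and 28.4% higher. The hosts also had more reads, at least 3906 over both libraries and a median of 122 FPKM in control, against 850 and 60.05 FPKM. The counts of hosts and other genes are thus not matched in depth, and a link with snoRNA genes was not tested. The highest and the lowest of the 60 log2 ratios, Taf1d and Ncl, were both snoRNA hosts. Relative to genes of like length the lowest was instead Utp3 (-0.74), which held no snoRNA gene, and Ncl was at -0.50.

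Log2 ratios fell with the listed transcript length over all genes, and did so on this list. The rank correlation of ratio with length (Spearman's rho) was -0.322 across the 60 genes and -0.180 across all genes tested; genes are not independent replicates, and no test was made. All genes tested were also split by length into 10 groups of equal size. Relative to the median of its length group, 38 of the 60 genes were lower, and the median over the 60 was -0.093. Npm1 (1366 bases) lay -0.60 from its group median and Ncl (8257 bases) -0.50 from it, while Taf1d (1286 bases) was 0.98 above. On this scale 23 genes were lower and 11 higher past counting error, against 17.1% and 20.3% of all genes tested. Tcof1, Nolc1, Mybbp1a, Nol6, Nol11, Wdr43, Bysl, Ddx10, Bop1 and Ddx18 no longer passed as lower, Fbl (-0.15) and Nhp2 (-0.21) now passed as lower, and Polr1a (0.32), Ubtf (0.16), Heatr1 (0.51), Ebna1bp2 (0.20) and Mrto4 (0.22) now passed as higher.

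**Figure D3:**
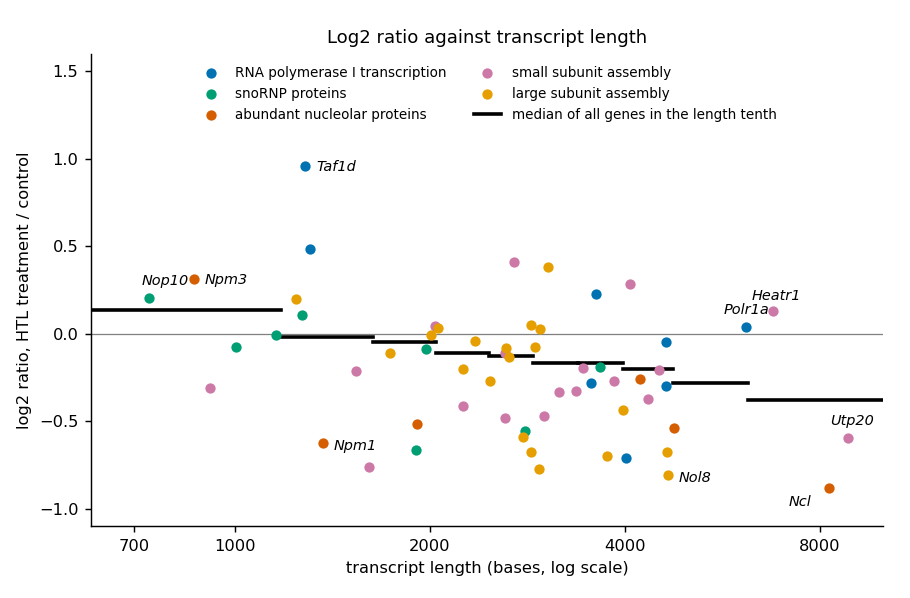
Log2 ratio (y axis, HTL treatment over control) against listed transcript length in bases (x axis, log scale) for the 60 genes, coloured by role; black bars are the median of all genes tested in each of 10 length groups. The bars fall from 0.14 for the shortest group to -0.38 for the longest, Npm1 and Ncl lie below the bar of their group and Taf1d above it.

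Other genes of the pathway, 110 in all and not on the list above, ran from -1.24 to 0.95 on the log2 scale. Of them 41 were lower and 12 higher past counting error (37.3% and 10.9%), and the median was -0.15. Called lower were 5 genes: Pop1, a scaffold of ribonuclease MRP (1463 and 543 reads, log2 ratio -1.24), its partner Rpp40 (111 and 42 reads, -1.21), Cd3eap, a polymerase I subunit (547 and 209 reads, -1.20), Mdn1, the giant ATPase that releases factors from the large subunit (6901 and 2892 reads, -1.07), and Nat10, an RNA cytidine acetyltransferase (1207 and 528 reads, -1.01). Mdn1 (-0.94 with TMM) and Nat10 (-0.88) did not reach the cutoff under any of the other scalings, and the other 3 did under each. None was called higher on library totals, but Zfp622, a large subunit export factor (653 and 1111 reads, 0.95), was under TMM (1.08), the median of ratios (1.09) and the upper quartile (1.04). By role, the median was -0.098 for 8 other polymerase I genes, -0.072 for 41 other small subunit genes, -0.21 for 40 other large subunit genes and -0.35 for 21 genes of the RNA exosome and ribonuclease MRP. TMM and the median of ratios put the first of these above 0, and that of the small subunit genes was above 0 under each other scaling.

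The messenger RNAs of the ribosomal proteins themselves, which the assembly factors join to ribosomal RNA, stood apart in value. Of 79 cytosolic ribosomal protein genes tested, 77 were higher and 1 lower past counting error, with a median of 0.47, and they made up 8.34% of control reads and 11.5% of those after HTL. Rps29 was called higher (1336 and 2496 reads, log2 ratio 1.09), as were Rpl34 (1.00) and Rps20 (1.01) with the median of ratios, and Rpl21 was the lowest (19476 and 16154 reads, -0.084, above 0 under each other scaling). They are short, with a median length of 703 bases against 2834 for the biogenesis genes, and relative to their length groups the medians were 0.34 and -0.093. Their copies are many in the mouse genome, so reads of single genes are uncertain. Of 18 subunits specific to RNA polymerases II or III, 7 were higher and 4 lower, with a median of 0.32. The difference between these lists and the 60 genes was not tested, as both are described by counts and medians only.

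**Figure D4:**
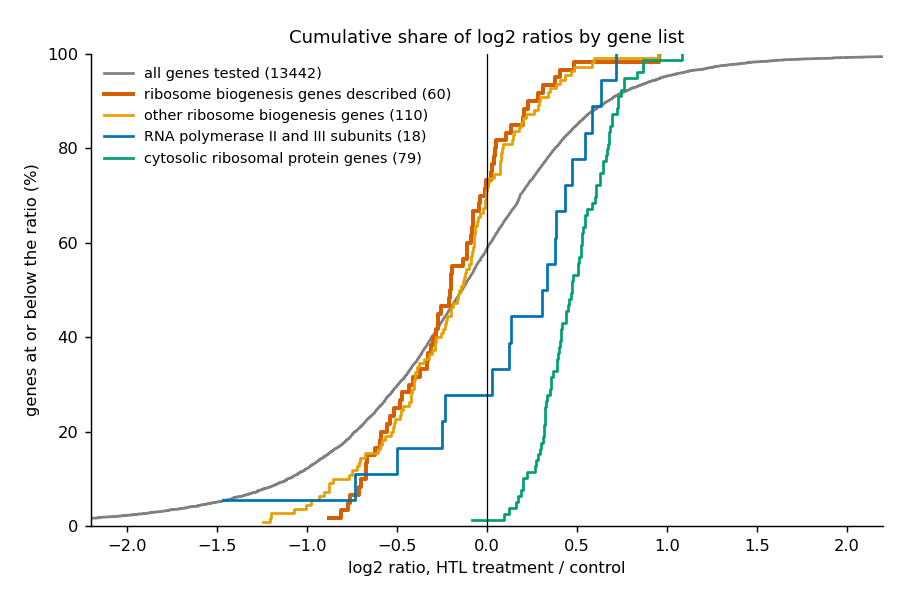
Cumulative percent of genes (y axis) at or below a log2 ratio (x axis, HTL treatment over control) for each list, with the number of genes in brackets. The 60 genes and the 110 other ribosome biogenesis genes run close together with medians of -0.20 and -0.15, and the ribosomal protein genes lie to the right with a median of 0.47.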

How the data were processed

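RNA of NE4C cells was sequenced in 1 control and 1 HTL treatment library, grouped by sample title. Library preparation used a TruSeq kit (per the labels) and, per the study's methods, the libraries were sequenced on a BGISEQ-500 and reads were counted with RSEM. The submitters' processing notes name the build mm9; the mapper, the annotation and the use of strand are not given in the sources used here. The deposited table holds estimated counts, which the authors did not normalize (21.8% and 20.2% of values were fractional in the control and HTL treatment libraries), and the authors' FPKM, with a lowest value of 0.01. The deposited log2 ratio, p-value and FDR columns hold the authors' own comparison and were not used.

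Estimated counts were rounded to whole reads. A minimum of 10 reads over the pair of libraries kept 13442 genes and dropped 3361. Each was given a two-sided exact conditional binomial test against the library totals (scipy 1.17.1), with Benjamini-Hochberg adjustment over all of them. For log2 ratios 0.5 read was added. Intervals are exact Clopper-Pearson intervals at 95%. No molecular identifiers are named in the sources, so reads are not independent molecules and the intervals cover counting error only. EdgeR's quasi-likelihood test and DESeq2 could not be fitted with 1 library a group; edgeR 4.0.16 gave TMM and upper quartile factors and the exact test at an assumed variation, and DESeq2 1.42.0 gave the median of ratios. Scripts were tested on simulated data. The pair ratios use the exact conditional interval of the odds ratio. Positions are from GENCODE M1 (NCBIM37, the same assembly as mm9) and promoters from RefSeq (GRCm38.p6). FPKM rests on listed lengths, which were 0.665 to 1.19 times the longest coding transcript in GENCODE M1. Exons of 17 of the 60 genes overlap another gene on the opposite strand. These are Polr1a, Taf1d, Nop56, Nhp2, Dkc1, Npm3, Gnl3, Mybbp1a, Nol11, Nop14, Rrp9, Bysl, Bop1, Pes1, Wdr12, Gnl2 and Rrp8. The reads of each, and the pair ratios that use them, are uncertain in the way given for Taf1d.

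The 60 genes and the other lists were chosen with earlier results of these data known. All 60 are named; of the other lists, those called, at most 5 in each direction, and otherwise the highest and lowest. Alternatives were other scalings, filters, added reads, FPKM + 1, centring by length group, summed near copies (1 gene, Npm3, had one), an assumed variation and a lower cutoff.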

Additional observations from a re-analysis of the deposited data

How the results depend on the processing

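No paired analysis was possible because there was a single library per condition, and none could be left out. With TMM, the median of ratios and the upper quartile, 1 gene of the 60 was called (Taf1d, higher), where 4.11%, 4.16% and 3.7% of all genes tested were called higher. With a cutoff of 0.5 on the log2 ratio 16 were called (1 higher and 15 lower, where 8.90% and 18.2% of all genes tested were). With an assumed coefficient of variation of 0.1, 2 passed the adjusted p (2.83% of all genes tested passed as higher and 7.26% as lower). With 0.2, 0 did (0.283% and 0.61%). The median of the 60 moved to -0.072 with TMM, -0.066 with the median of ratios and -0.093 relative to the length groups. For the summed share the log2 ratio became -0.26 with TMM, -0.25 with the median of ratios and -0.21 without Npm1 and Ncl. The scalings shift every gene by the same amount, so only genes near 0 change sign. Under TMM scaling, medians above 0 were 0.13 for the polymerase I genes, 0.049 for the snoRNP genes, 0.0080 for the large subunit genes, 0.032 for the other polymerase I genes, 0.058 for the other small subunit genes, and log2 ratios above 0 were 0.084 for Ubtf, 0.12 for Fbl, 0.045 for Nop58, 0.054 for Nhp2, 0.020 for Wdr75, 0.056 for Pes1, 0.048 for Nop2, 0.019 for Nop16, 0.091 for Gnl2, 0.12 for Rrp1. Under the median of ratios, medians above 0 were 0.13 for the polymerase I genes, 0.056 for the snoRNP genes, 0.014 for the large subunit genes, 0.038 for the other polymerase I genes, 0.064 for the other small subunit genes, and log2 ratios above 0 were 0.090 for Ubtf, 0.13 for Fbl, 0.051 for Nop58, 0.060 for Nhp2, 0.026 for Wdr75, 0.062 for Pes1, 0.055 for Nop2, 0.026 for Nop16, 0.0029 for Brix1, 0.10 for Gnl2, 0.13 for Rrp1. Under the upper quartile, medians above 0 were 0.091 for the polymerase I genes, 0.012 for the snoRNP genes, 0.021 for the other small subunit genes, and log2 ratios above 0 were 0.047 for Ubtf, 0.086 for Fbl, 0.0079 for Nop58, 0.017 for Nhp2, 0.019 for Pes1, 0.012 for Nop2, 0.054 for Gnl2, 0.087 for Rrp1. Relative to the length group, medians above 0 were 0.24 for the polymerase I genes, 0.011 for the other polymerase I genes, 0.043 for the other small subunit genes, and log2 ratios above 0 were 0.16 for Ubtf, 0.019 for Wdr75, 0.10 for Pes1, 0.048 for Nop2, 0.073 for Gnl2, 0.043 for Rrp1. Counts past counting error stayed between 34 and 38 with the other scalings, filters, added reads, FPKM + 1 and summed near copies. Leaving out Npm1 and Ncl, and the alternatives for single genes and for list medians, were chosen after seeing the data. With 1 library a condition, depth limits only the counting error.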

Other observations

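Subunits of the RNA exosome and of ribonucleases MRP and P, which trim ribosomal and transfer RNA precursors, were lower past counting error in 9 of 21 cases and higher in 1. Beside Pop1 and Rpp40, Exosc10, the nuclear exonuclease, had 1727 control and 920 HTL reads (log2 ratio -0.72, 95% interval -0.84 to -0.61). Pop5 was the highest of them, at 237 control and 292 HTL reads (0.49, 0.23 to 0.74). The list median stayed below 0 under each scaling run.

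Polymerases II and III also held genes far apart. Polr3e, a polymerase III subunit, was called lower at 566 control and 180 HTL reads (log2 ratio -1.46, 95% interval -1.72 to -1.22). Polr2g, a polymerase II subunit, was the highest at 542 control and 783 HTL reads (0.72, 0.56 to 0.88). Exosc10 here was chosen after its values were seen.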
